A study of Equus caballus with 18 samples.

Results

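The resting joint was described from the synovial fluid of 6 horses, each sampled before any drug was injected. The members are the 6 arrays that the labels call baseline, out of 18 arrays of the series. All 16789 probe sets with exactly 1 gene symbol, of 30559 on the array, were ranked by their mean and by their SD over these 6 arrays. The horses were exercised Thoroughbreds from a study of 12 animals, 6 geldings and 6 mares aged 4 to 8 years, and the sex and age of each single horse are not given in the labels. Fluid came from the right antebrachiocarpal joint, a joint of the carpus, into which isoflupredone acetate, a synthetic corticosteroid, was later injected at 8 mg. Total RNA was isolated from whole fluid, so it holds the RNA of every cell type that floats in the joint together with any RNA outside cells. Saline-injected horses were not analysed here, and arrays taken after the injection were not used.

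Synovial fluid is a filtrate of plasma to which lining cells add hyaluronan and lubricin, and it bathes the cartilage and the synovial membrane. In a healthy joint it carries few cells, mostly mononuclear: macrophages and lymphocytes, with few neutrophils and a small number of detached lining fibroblasts. Cartilage cells are locked in their matrix and endothelial cells in vessel walls, so their transcripts are not typical of the fluid. In bulk RNA, fewer cells of a type and less RNA per cell cannot be told apart.

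Each value is a log2 expression value, so a difference of 1 is a doubling of signal, and a level below means the mean over the 6 horses with its SD (n = 6). Probe sets differ in how strongly they bind, so the order of brightness is not an order of transcript number, and levels of different genes are set side by side only as brightness. Every horse gave 1 array, so differences between horses and between arrays cannot be told apart. There is 1 condition and no test. As a guide to what background may reach, 90 measured genes restricted to tissues such as retina, liver, pancreas and germ line were used. Their levels had a median of 3.68 and ran from 2.46 to 5.95, and their 95th percentile, 5.32, is called the reference level. Over all named probe sets the median level was 4.15, the 5th and 95th percentiles were 2.91 and 5.87, and 2031 probe sets (12.1%) stood above the reference level.

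The arrays were similar in their medians, from 3.91 to 4.01, and unlike in their width. Horse 4 had the widest array, with an SD of 1.50 over its probe sets, and horse 6 the narrowest, with 1.22. Across genes, pairs of arrays correlated from 0.69, horses 4 and 6, to 0.84, horses 2 and 5. A first principal component held 33.0% of the variance and set horse 4 against horses 6 and 3. A second held 22.2% and set horse 1 against horse 6. No pair of arrays held equal values at more than 0.89% of probe sets, so none looked like a copy. A wide array places bright genes higher, and the background for being the highest of 6 is uneven. Horse 4 was highest at 22.9% of named probe sets and horse 1 at 17.8%. Among the 2031 probe sets above the reference level these shares were 41.8% and 21.5%, and horse 6 had the smallest, 5.22%.

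Of the 30 brightest named probe sets of resting fluid, 14 were of ribosomal protein genes, and the rest had varied roles. ND1, a subunit of respiratory complex I that mitochondrial DNA encodes, was first at 11.91 ± 0.38 and ran from 11.26 in horse 6 to 12.38 in horse 1. CD74, the invariant chain that guides MHC class II molecules to endosomes, was next at 10.91 ± 0.47, with 10.38 in horse 1 and 11.58 in horse 4. TMSB4X, which binds monomeric actin, was at 10.68 ± 0.40. For these 3 genes the highest and lowest horses were 2.17-fold to 2.30-fold apart.

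The ribosomal protein genes were led by RPS27 at 10.73, RPL35 at 10.61, RPL18 at 10.53 and RPL37 at 10.49. These genes have near-identical copies in mammalian genomes, and how far their probe sets share signal was not tested. The other bright genes fall into a few roles. VIM (10.29), an intermediate filament protein of mesenchymal cells and leukocytes, ACTB (9.98), TAGLN2 (9.11) and LGALS1 (9.39), which encodes galectin-1, belong to the cell skeleton or surface. LAPTM5 (9.76), a lysosomal membrane protein of blood cells, DRA (9.22), the MHC class II alpha chain, and C1QB (9.15), a chain of complement C1q made by macrophages, belong to leukocytes. GAPDH, of glycolysis, was at 9.76 and IFI27, an interferon-induced gene, at 9.44. None of the 30 was among the 30 most variable genes.

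Even among the brightest genes the horses differed unequally. LGALS1 was the steadiest, with an SD of 0.23 and values from 9.08 in horse 2 to 9.77 in horse 4. RPLP0, an acidic protein of the ribosomal stalk, had the largest SD of the 30, 0.95. It was 7.63 in horse 6 and 8.46 in horse 3, while the other horses lay between 9.60 and 9.93. The set therefore holds genes near the same level in all horses and genes in which horses 3 and 6 sat apart below the rest.

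**Figure D1:**
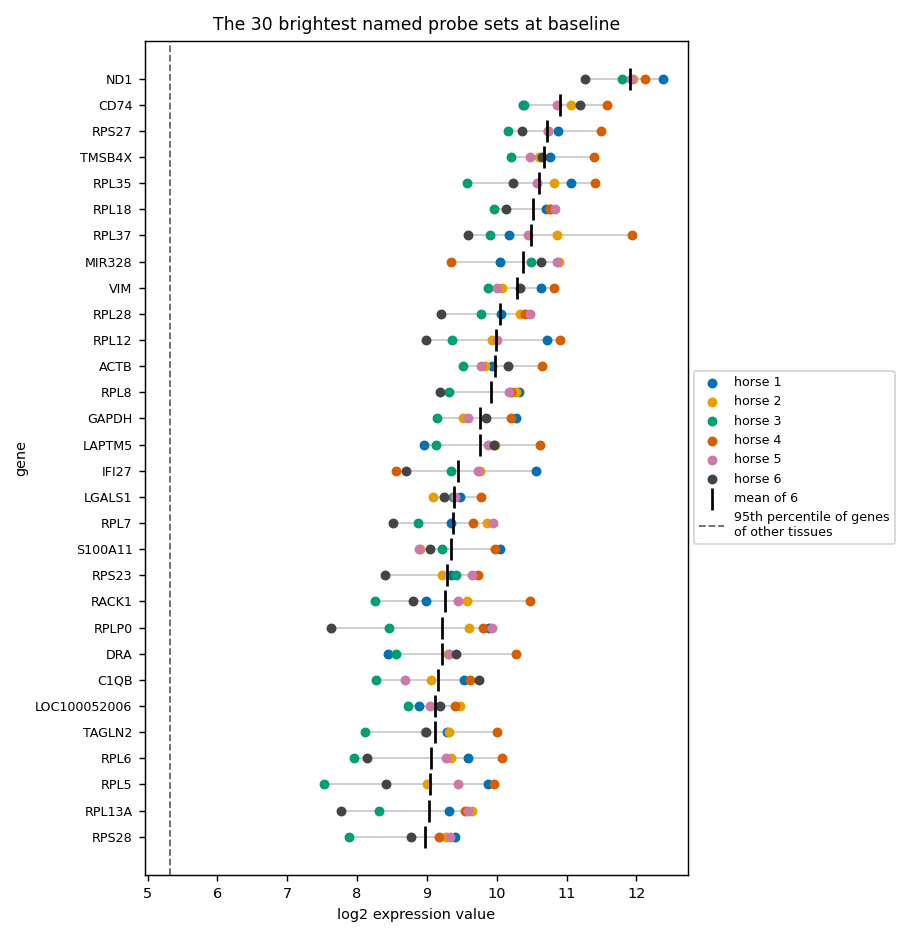
The 30 brightest named probe sets at baseline, with 1 point per horse, the log2 expression value on the x axis and a black bar at the mean of 6 horses. All points lie to the right of the dashed reference level of 5.32, and horse 6 holds the lowest point for RPLP0 at 7.63.

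The dim end held mostly microRNA genes, olfactory receptor genes and unnamed loci. Of the 20 dimmest named probe sets, from LOC100071061 at 2.09 to MIR493B at 2.37, 8 were microRNA genes, 4 olfactory receptor genes and 6 unnamed loci. The other 2 were DSEL (2.21), an enzyme of dermatan sulfate modification, and YEATS4 (2.30), a reader of acetylated histones. Over the whole array, the 669 olfactory receptor genes had a median level of 3.51, 53.5% of them lay in the dimmest 25% and 1.94% stood above the reference level. The 328 microRNA genes had a median of 3.12, with 69.2% in the dimmest 25% and 7.01% above the reference level.

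A few members of these dim classes were bright. MIR328 stood eighth of all named probe sets at 10.38 ± 0.59, with its lowest value, 9.35, in horse 4 and its highest, 10.89, in horse 2. MIR92B was at 7.88 ± 0.42. OR4D11F, an olfactory receptor symbol, was at 7.96 ± 1.16 and ran from 6.19 in horse 6 to 9.09 in horse 3. Horse 4, highest for many bright genes, was lowest for both microRNA genes. Whether these probe sets read the named transcript was not tested.

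Among cell types, macrophage and T cell markers were bright beside neutrophil, endothelial, platelet and red cell markers. Of 15 measured markers of monocytes and macrophages, 7 stood above the reference level and 8 lay in the brightest 25%, against 12.1% and 25% of all named probe sets. TYROBP, a signalling adaptor of myeloid and NK cells, was at 8.52 ± 1.08. FCER1G, the gamma chain of Fc receptors, was at 8.32 ± 1.19, and CD68, a lysosomal protein of macrophages, at 7.92 ± 0.69. Horse 3 was lowest and horse 4 highest for each of these 3: TYROBP was 6.62 and 9.82, FCER1G 6.22 and 9.77, and CD68 6.91 and 8.93. CSF1R, the receptor for the growth factor on which macrophages depend, had a narrower range, 5.80 in horse 3 to 7.00 in horse 4. The scavenger receptors CD163 (3.64 ± 0.43) and MSR1 (3.70 ± 0.51) were below the median of all named probe sets in these samples.

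Markers of the macrophages that line the resting joint were led by complement C1q. Of 13 measured, 4 stood above the reference level (30.8%, beside 12.1% of all named probe sets). They were C1QB, C1QA at 6.75 ± 0.66, C1QC at 6.59 ± 0.39 and TREM2, a lipid-sensing receptor, at 6.36 ± 0.46. C1QA was highest in horse 1, at 7.95, and the other horses lay between 6.07 and 6.99. TIMD4, which binds phosphatidylserine on dying cells, was at 7.50 in horse 4, where all others lay between 4.09 and 5.04. MERTK, another receptor for dying cells, was at 3.71 ± 0.40. The C1q chains were thus bright in every horse, while TIMD4 rests on 1 horse and MERTK was dim.

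T cell markers had the highest median of the 13 cell type lists, 5.41. Of 19 measured, 10 stood above the reference level and 14 lay in the brightest 25%, beside 12.1% and 25% of all named probe sets. LAT, the adaptor that links the T cell receptor to its signal, was at 7.01 ± 0.76. CD5 was at 6.43 ± 0.47 and CD6 at 6.22 ± 0.57, both surface receptors of T cells. CD3D, a chain of the T cell receptor complex, was at 6.20 ± 1.44. It ran from 4.48 in horse 1 and 4.88 in horse 6 through 6.17, 6.22 and 6.99 in horses 3, 5 and 2 to 8.44 in horse 4. CD3E, another chain, had the same horses at its ends, from 4.06 in horse 1 and 4.18 in horse 6 to 7.06 in horse 4. CD5 and CD6 varied less, so the size of the spread depends on which marker is read.

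Cytotoxic and B cell markers were less bright. Of 15 measured NK and cytotoxic markers, 5 stood above the reference level (33.3%, beside 12.1% of all named probe sets). GZMB (6.83 ± 0.34), a granzyme, and PRF1 (6.82 ± 0.30), the pore-forming perforin, were the brightest. The other 2 GZMB probe sets read 6.05 ± 1.17 and 3.66 ± 0.74, so the small spread holds for 1 of 3. GZMK, another granzyme, was at 5.02 ± 1.11, with 6.81 in horse 4 and 4.04 in horse 1. Of 12 B and plasma cell markers, 2 stood above the reference level (16.7%, near the 12.1% of all named probe sets). They were DERL3 (5.74 ± 0.65), of protein quality control in the endoplasmic reticulum, and CD79B (5.34 ± 1.20), a chain of the B cell receptor. The plasma cell markers TNFRSF17 and MZB1 were at 3.28 and 4.21. MS4A1, which encodes CD20, was at 6.09 and 6.62 in horses 2 and 4 and at most 4.44 in the others. CD79A showed the same 2 horses on top, at 6.12 and 7.07, with 3.65 in horse 1.

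In the list of dendritic cells and MHC class II, CD74 and DRA were bright and the dendritic cell markers uneven. Of 13 measured genes of dendritic cells and MHC class II, 5 stood above the reference level (38.5%, beside 12.1% of all named probe sets). CD74, DRA and IRF8 (7.25 ± 0.70) were at the top. IRF8 is a transcription factor of mononuclear phagocytes and dendritic cells. BATF3 (6.09), a dendritic cell gene of the list, and CIITA (5.48) stood above the reference level too. CLEC9A (2.50), FCER1A (3.23) and FLT3 (3.57), also dendritic cell markers, were below the median of all named probe sets. DRA was lowest in horses 1 and 3, at 8.44 and 8.56, and highest in horse 4, at 10.27. CCR7, which guides dendritic cells and naive T cells to lymph nodes, was at 4.83 ± 1.05, from 3.38 in horse 6 to 6.29 in horse 4.

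Neutrophil markers had a median of 4.56, beside 4.15 for all named probe sets. Of 13 measured, 5 lay in the brightest 25%, and 3 stood above the reference level (23.1%, beside 12.1% of all named probe sets). These 3 were CSF3R (6.39 ± 1.14), the receptor of the granulocyte growth factor, MMP9 (5.70 ± 0.67), a gelatinase, and TREM1 (5.61), an activating receptor. All of these are also found on or in monocytes or macrophages. CSF3R was 7.43 and 8.02 in horses 2 and 4 and 5.16 in horse 1. The calgranulins, among the most abundant transcripts of blood neutrophils, were dim: S100A8 at 3.55 ± 0.53, S100A9 at 3.59 ± 0.55 and S100A12 at 3.71 ± 0.45. The highest calgranulin value in any horse was 4.51, for S100A8 in horse 6, and so no horse reached the reference level.

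None of 6 measured red blood cell genes, 8 platelet genes or 9 genes of mast cells, basophils and eosinophils stood above the reference level. Neither did any of 14 endothelial genes, beside 12.1% of all named probe sets. At that share, lists this short would hold few such genes. The brightest members were CA1 (4.13), a carbonic anhydrase of red cells, PPBP (4.83), a platelet chemokine, GATA2 (5.12), a transcription factor of mast cells, and EGFL7 (5.21), secreted by endothelium. HBB, the beta globin gene, was at 3.70 ± 0.74, between 2.74 in horse 1 and 4.61 in horse 6. The mean level of HBB was therefore below the median of all named probe sets, while its values in horses 6 and 4 (4.42) were above that median.

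Stromal markers were bright at some members, and the share of bright cartilage genes was that of the array. Of 17 measured fibroblast markers, 4 (23.5%) stood above the reference level, and the list's median was 4.34. The list was split, with 8 members in the brightest 25% of named probe sets and 7 in the dimmest 25%. PDPN (3.18), CDH11 (3.10) and FAP (3.07) were among the dim members. FN1, encoding fibronectin, was at 7.35 ± 1.30 and DCN, encoding the collagen-binding proteoglycan decorin, at 5.69 ± 1.42. Of 17 chondrocyte genes, 2 stood above the reference level (11.8%, beside 12.1% of all named probe sets), the collagen IX chains COL9A3 (6.05 ± 0.46) and COL9A2 (6.03 ± 0.31). The genes that define cartilage matrix were dimmer: COL2A1, of collagen II, was at 4.55 ± 0.42 and ACAN, of aggrecan, at 4.02 ± 0.41. COMP, a matrix protein of cartilage and tendon, was at 5.19 ± 0.79 and ran from 4.20 in horse 4 to 6.37 in horse 1.

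**Figure D2:**
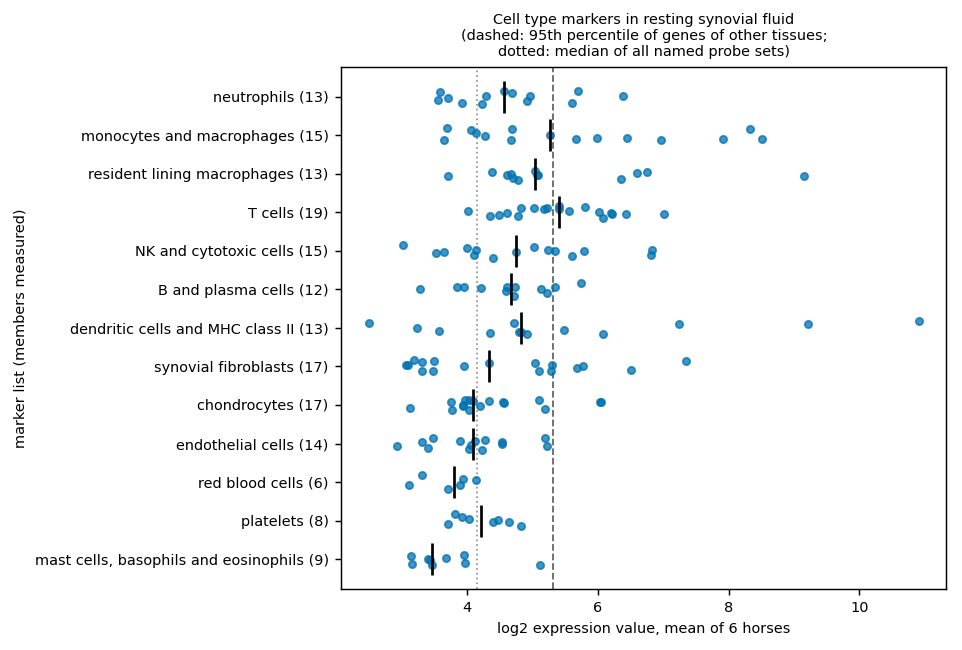
Markers of 13 cell types, with 1 point per measured gene at its mean log2 expression value over 6 horses and a black bar at the median of each list. The T cell list has the highest median, 5.41, and no point of the endothelial, red blood cell, platelet or mast cell lists lies to the right of the dashed reference level of 5.32.

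By function, genes of protein synthesis and of the cell skeleton were the brightest groups. Of 34 lists of cell types and functions, 6 had a median above the reference level. They were ribosomal proteins (7.98), the actin skeleton (6.94), MHC class I presentation (5.77), immediate early genes (5.58), T cells (5.41) and the lysosome (5.40). Among 37 ribosomal protein genes 32 stood above the reference level, and among 22 actin genes 19, beside 12.1% of all named probe sets. B2M, the light chain of MHC class I, was at 7.97 ± 0.70, from 7.14 in horse 3 to 9.14 in horse 4.

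Lysosomal genes, which macrophages use to digest what they engulf, had 10 of 20 members above the reference level. The share was 12.1% over all named probe sets. NPC2, a cholesterol carrier of the lysosome, was at 8.60 ± 0.65. PSAP, the precursor of sphingolipid activator proteins, was at 7.63 ± 0.91 and LAMP1, of the lysosomal membrane, at 7.45 ± 0.90. Horse 3 was lowest for each of the 3, at 7.48, 6.41 and 6.32. FTL, the ferritin light chain that stores iron, was at 8.72 ± 0.56, between 7.90 in horse 6 and 9.52 in horse 1.

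Immediate early genes, which cells switch on within minutes of a stimulus, had 14 of 21 members above the reference level. Over all named probe sets the share was 12.1%. KLF6 was at 6.92 ± 0.64, IER3 at 6.46 ± 0.69 and JUN at 6.36 ± 0.88. JUN ran from 4.73 in horse 6 to 7.22 in horse 1, with the other 4 horses between 6.17 and 6.98. Among 19 heat shock genes 8 stood above the reference level, beside the same 12.1%. HSPA8, a constitutive chaperone, was at 7.71 ± 1.10 and HSP90AB1 at 7.48 ± 1.20, both lowest in horse 3, at 6.34 and 5.73.

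Inflammatory mediators were like the array as a whole, with single bright genes. Of 23 measured cytokine and chemokine genes, 3 stood above the reference level (13.0%, beside 12.1% of all named probe sets), and the median was 4.02 beside 4.15. CCL5, a chemokine of T and NK cells, was the exception in size, at 8.78 ± 0.95 and rank 36 of all named probe sets. It was 7.62 in horse 1, 8.14 and 8.19 in horses 6 and 3, 9.26 and 9.30 in horses 5 and 2, and 10.17 in horse 4. CCL3, a macrophage chemokine, was at 6.25 ± 0.49 and CSF3, a granulocyte growth factor, at 5.74 ± 0.29. Horse 4 was the highest for CCL5 and CCL3 and the lowest for CSF3.

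Other effector groups differed in their share above the reference level, which was 12.1% over all named probe sets. Cell cycle genes had 1 of 30 above the reference level, MCM7 (5.54), of the replicative helicase. Interferon-stimulated genes had 5 of 26, led by XAF1 (5.76). IFI27, the interferon-induced gene at 9.44, was not in this list. Prostaglandin and leukotriene genes had 1 of 20, ALOX5AP (5.42), which presents arachidonate to its lipoxygenase. Matrix proteases and their inhibitors had 4 of 26, and in the hyaluronan group CD44 (7.58 ± 0.29), the leukocyte receptor for hyaluronan, was the 1 gene of 11. Complement, at 6 of 18 (33.3%), had the largest share of these groups, with C5AR1, the C5a receptor of myeloid cells, at 7.11 ± 1.00.

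Metabolic and regulatory groups mostly had a larger share above the reference level than the 12.1% of all named probe sets. Glycolysis had 9 of 28 above the reference level, with ALDOA, the aldolase of muscle and blood cells, at 7.63 ± 1.10 and ENO1, an enolase, at 7.14 ± 1.09. ENO1 ran from 5.43 in horse 6 to 8.21 in horse 1. The mitochondrial respiratory chain genes of the nucleus had 7 of 21, and their median was 4.52. Lipid handling had 6 of 20, led by LRP1 (6.25 ± 0.73), an endocytic receptor, and iron handling 4 of 16, among them HAMP (6.02 ± 0.38), which encodes the iron hormone hepcidin, and BLVRB (5.94 ± 0.46), a reductase of haem breakdown. Anti-inflammatory mediators had 6 of 16, led by TNFRSF1B (6.15 ± 0.61), a receptor of tumour necrosis factor. NF-kB and toll-like receptor signalling had 6 of 25, with PYCARD, the inflammasome adaptor, at 6.40 ± 0.64, and inhibitory receptors and regulatory T cell genes 1 of 15, PDCD1 (5.59 ± 0.43), which encodes PD-1. Structural matrix genes had 6 of 31, with FN1, BGN (6.30 ± 1.62) and COL6A2 (5.79 ± 0.68) at the top.

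A panel of 24 genes of inflammation, matrix breakdown and corticosteroid response was read whatever its level. Of these, 21 had a named probe set, and IL1B, CCL2 and PRG4 had none. The 4 above the reference level were TIMP1 (6.36 ± 0.77), an inhibitor of metalloproteinases, ANXA1 (5.83 ± 0.51), which encodes annexin A1, DUSP1 (5.49 ± 0.76), a phosphatase that ends MAP kinase signals, and TSC22D3 (5.39 ± 1.00), which encodes GILZ. The last 3 are known targets of glucocorticoids, here before any was given, and FKBP5, another such target, was under the reference level at 4.63 ± 0.49. TSC22D3 was 6.17 and 6.78 in horses 2 and 4, 5.83 in horse 5 and from 4.36 to 4.62 in horses 1, 3 and 6. NR3C1, the glucocorticoid receptor, was just under the reference level at 5.29 ± 0.80, from 4.24 in horse 5 to 6.61 in horse 4.

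The effectors of joint inflammation and matrix breakdown in the panel were under the reference level. IL6 was at 3.09, TNF at 4.07, CXCL8 at 4.18 and PTGS2, the inducible prostaglandin synthase, at 4.05. The collagenases MMP1 and MMP13 were at 4.33 and 3.11, the stromelysin MMP3 at 3.04, and the aggrecanases ADAMTS4 and ADAMTS5 at 4.22 and 3.58. IL10 was at 3.97 and IL1RN, the interleukin 1 receptor antagonist, at 4.91. Of the 21 measured panel genes 4 stood above the reference level and 7 in the brightest 25%. Over all named probe sets these shares were 12.1% and 25%, so the panel as a whole was no dimmer than the array.

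The spread among horses was larger for bright genes. The median SD was 0.44 over all named probe sets, and it was 0.53 in the brightest 25% against 0.39 in the dimmest. An SD above 1 was found at 429 probe sets (2.56%), and 315 of them lay in the brightest 25%. Of the 34 lists, 25 had a median SD above that of all named probe sets.

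**Figure D3:**
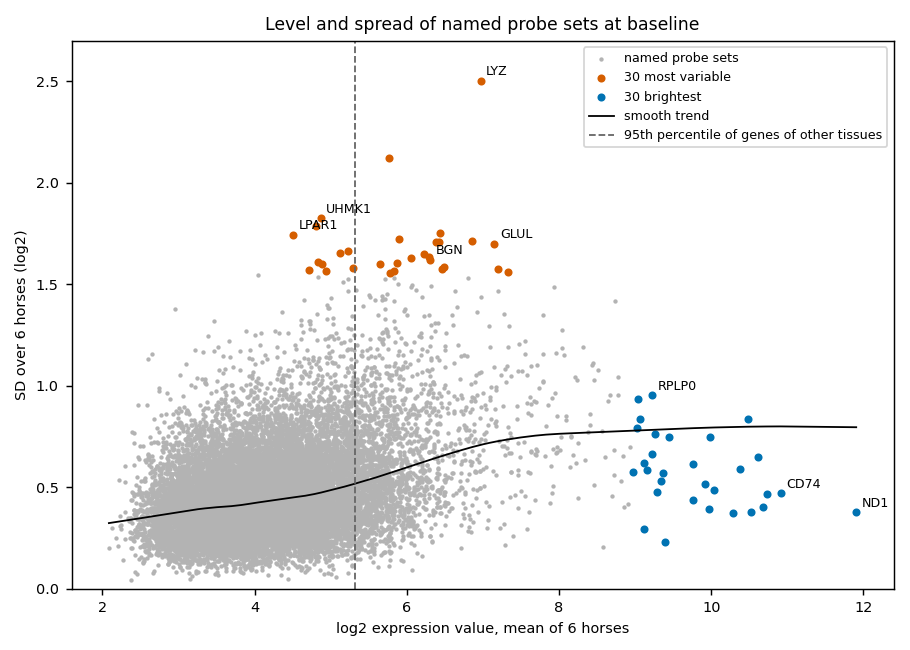
The SD over 6 horses against the mean log2 expression value, with 1 point per named probe set. The median SD is 0.53 in the brightest 25% and 0.39 in the dimmest, and LYZ has the largest SD, 2.50.

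LYZ, encoding the antibacterial enzyme lysozyme of macrophages and granulocytes, was the most variable gene. It was 3.74 in horse 1, 8.38 in horse 2, 4.25 in horse 3, 10.17 in horse 4, 7.21 in horse 5 and 8.07 in horse 6. Horses 1 and 3 were at the level of dim probe sets and the other 4 were bright, a range of 86.2-fold. Without any single horse it was still the gene with the largest SD, between 2.17 and 2.80.

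The 30 most variable probe sets, of 29 genes, had SDs from 1.56 to 2.50, and their highest and lowest horses were 11.6-fold to 86.2-fold apart. ERG, at 1.56, was the last inside the set and MIR223, at 1.54, the first outside. In all 30 the highest horse was horse 1, at 16 probe sets, or horse 4, at 14. The lowest horse was most often horse 6, at 14 probe sets. The set rests mostly on these arrays. Without horse 1, 13 of the 30 were still among the 30 most variable, without horse 4, 19, and without horse 6, 20. With horse 2, 3 or 5 left out, 24 to 28 stayed.

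The probe sets highest in horse 1 included genes of matrix, adhesion and growth control. BGN, the proteoglycan biglycan, was 9.31 in horse 1, where all others lay between 4.65 and 6.73. THBS4, a matrix thrombospondin, was 9.42 there and between 4.80 and 6.38 elsewhere. LPAR1, a receptor for lysophosphatidic acid, was 8.03 against 3.44 to 4.12. In these 3 genes the horse 1 value lay clear of all others.

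Others of this set code for enzymes and regulators. GLUL, glutamine synthetase, was 10.09 in horse 1, where all others lay between 4.87 and 7.32. ERRFI1, a feedback inhibitor of the epidermal growth factor receptor, was 9.0 against 4.36 to 6.46, and FADS2, a fatty acid desaturase, 8.09 against 3.23 to 5.44. UHMK1, a kinase, was 8.18 against 2.88 to 5.02, with the third largest SD among named probe sets. CCNG1, a cyclin induced by p53, was different: horse 4, at 8.29, was close to horse 1, at 8.54, and the others lay between 4.11 and 6.72. Of the 16 probe sets, 11 had their lowest value in horse 6, the narrowest array.

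The probe sets highest in horse 4 included genes of leukocytes. PTPRC, which encodes the pan-leukocyte phosphatase CD45, was 3.61 in horse 1, 7.24 in horse 2, 5.47 in horse 3, 8.65 in horse 4, 6.43 in horse 5 and 6.86 in horse 6. LEF1, a transcription factor of T cells, was 7.53, 8.23 and 7.54 in horses 2, 4 and 5 and between 4.69 and 4.92 in the other 3. For PTPRC horse 1 stood lowest, and for LEF1 horses 1, 3 and 6 formed a low group.

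Genes of general functions were in this set as well. SF3B1, a splicing factor, was 8.31 in horse 4 and 4.47 in horse 6. XPO6, which exports actin from the nucleus, was 9.0 in horse 4 and 4.72 in horse 1. SOD2, the mitochondrial superoxide dismutase, owed its SD of 1.60 to a low value, 2.65 in horse 6, with the other 5 horses between 6.23 and 6.99. Of the 14 probe sets, 6 were lowest in horse 1, 4 in horse 3 and 3 in horse 6.

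**Figure D4:**
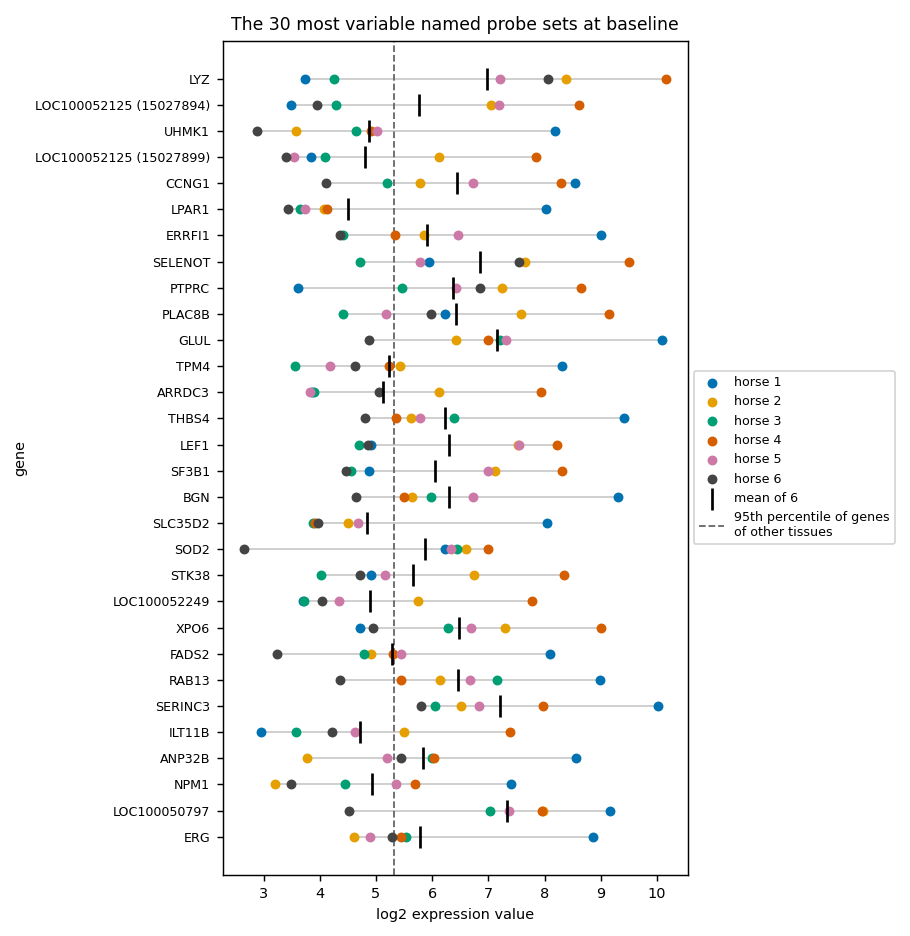
The 30 most variable named probe sets at baseline, with 1 point per horse, the log2 expression value on the x axis and a black bar at the mean of 6 horses. The highest point belongs to horse 1 in 16 probe sets and to horse 4 in 14, and LYZ has the widest range, from 3.74 to 10.17.

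Read by list, horse 1 was highest for most stromal genes. Of 17 fibroblast markers, 11 were highest in horse 1, and of 31 structural matrix genes, 20, beside 17.8% of all named probe sets. Among members above the reference level these were 3 of 4 and 5 of 6, beside 21.5%. The lists share FN1, DCN, LUM, COL1A1, COL1A2, COL3A1 and COL6A1, so their counts are not independent. DCN was 8.53 in horse 1, with all others between 4.91 and 5.71. FN1 was 9.67 against 6.10 to 7.85, and LUM, encoding lumican, 6.05 against 2.38 to 3.55. COL1A1, of collagen I, was 7.21 against 4.45 to 5.19. THY1, a surface marker of fibroblasts, was 7.21 in horse 1, with all others between 3.26 and 5.87. PDPN, a marker of lining fibroblasts, went another way, with 3.24 in horse 1 and its highest value, 3.94, in horse 6.

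Several leukocyte lists, though not all, were highest in horse 4, and so were lists of general functions. Horse 4 was highest at 15 of 22 actin genes, 9 of 13 MHC class I genes and 17 of 37 ribosomal protein genes. Its median deviation was the highest in 11 of 21 lists of functions, and in 9 after quantile normalization. Of monocyte and macrophage markers 13 of 15 were highest there, of T cell markers 12 of 19, of NK and cytotoxic markers 10 of 15 and of lysosome genes 14 of 20, beside 22.9% of all named probe sets. Among members above the reference level the counts were 7 of 7, 6 of 10, 3 of 5 and 10 of 10, beside 41.8% of all such probe sets, so the T cell and NK shares, 60% each, lay nearer to the background. Lining macrophage markers were highest in horse 1 at 6 of 13 and in horse 4 at 2, with median deviations of 0.38 and 0.19. Neutrophil markers were highest in horse 4 at 4 of 13, with a median deviation of 0.31 in horses 2 and 4 alike. Horse 4 also has the widest array, and after quantile normalization, which gives all arrays the same distribution, the counts over whole lists were 9 of 15, 10 of 19, 9 of 15 and 12 of 20. The median deviation of lining macrophage markers in horse 4 was then -0.09, and the counts for horse 1 were 12 fibroblast and 21 matrix genes. T cell genes were lowest in horse 1 at 10 of 19, beside 15.5% of all named probe sets. The median deviation of T cell genes from their own means was 1.02 in horse 4 and -0.71 in horse 1, and that of fibroblast genes was 0.69 in horse 1. Horse 1 was lowest for neutrophil markers too, at -0.44, but stood at -0.03 for monocyte and macrophage markers and at -0.01 for lysosome genes. The part of array width in what this normalization left was not tested.

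Horses 3 and 6 were low for several lists, some of them named above. Horse 6 was lowest at 7 of 19 T cell genes, with a median deviation of -0.575, and at 7 of 17 fibroblast markers. Among members above the reference level these were 4 of 10 and 4 of 4, beside 38.2% of all such probe sets. Ribosomal protein genes were lowest in horse 6 at 23 of 37, beside 21.9% of all named probe sets, and at 22 of the 32 above the reference level, beside 38.2% of all such probe sets. Horse 6 is the narrowest array: the list's median deviation there was -0.78 as deposited and -0.35 after quantile normalization, when horse 3 was the lowest at -0.47. The median level of that list was lowest in horses 6 and 3, at 6.83 and 7.03, and the other 4 horses lay from 7.89 to 8.54. Monocyte and macrophage markers deviated by a median of -0.64 in horse 3, and lysosome genes by -0.77. The red blood cell list had horse medians between 3.43 and 3.92 and the platelet list between 3.93 and 4.22, both under the reference level in each of the 6 horses. The platelet medians in horses 1, 2 and 4 were slightly above the medians of all named probe sets on those arrays.

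**Figure D5:**
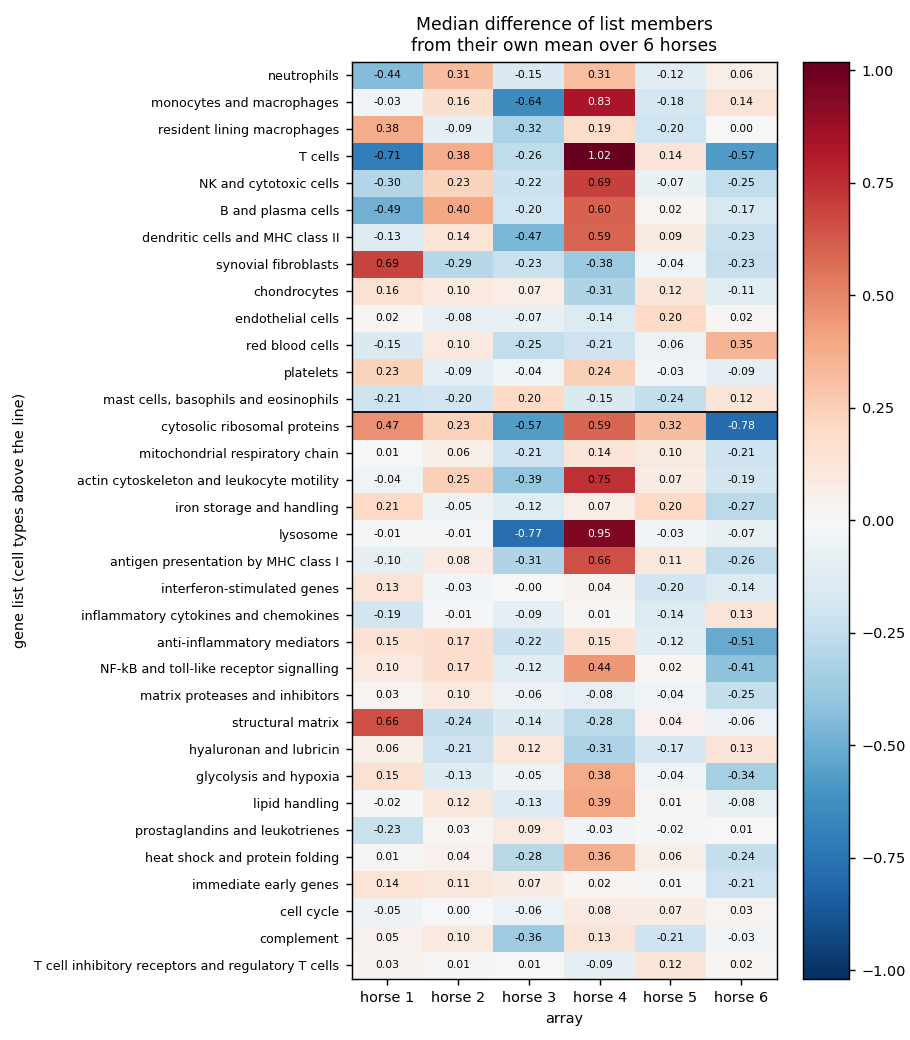
Median deviation of each list's members from their own means over 6 horses, in log2 units, with 1 row per list and 1 column per horse. T cell genes stand at 1.02 in horse 4 and -0.71 in horse 1, and fibroblast genes at 0.69 in horse 1.

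At the other extreme were bright genes that hardly differed between horses. In the brightest 25%, the smallest SD was that of RPS6KA2, a ribosomal S6 kinase, at 5.07 ± 0.058, with 4.97 in horse 1 and 5.12 in horse 5. SZRD1 was at 6.06 ± 0.092, from 5.90 to 6.15. TNIP1, an inhibitor of NF-kB signalling, was at 5.77 ± 0.11, from 5.61 to 5.91. SZRD1 and TNIP1 stood above the reference level in every horse, whereas RPS6KA2 was below it in all of them.

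Readings of 1 gene by several probe sets show how far brightness depends on the probe set. Of 111 genes with more than 1, 41 had probe sets more than 1 apart in mean and 13 more than 2. RPL35 differed by 7.31, with 1 probe set at 10.61 and another at 3.30. Of 40 genes with a probe set above the reference level, 27 had another that was not. Lists used the brightest probe set of a gene, which places such genes at the upper of these readings.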

How the data were processed

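The 6 baseline arrays hold log2 expression values per probe set, deposited by the authors to 2 decimals. Transcriptome Analysis Console 3.0, Affymetrix Expression Console and RMA are named, per the submitters' processing notes, without roles or order, and whether arrays were summarised together is not given in the sources used here. Values ran from 1.21 to 13.68 with none missing and were used as deposited. Symbols came from the platform annotation: 16789 probe sets had 1 symbol, 343 several and 13427 none. They cover 16661 genes, and a list used the brightest probe set of each gene.

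Mean, SD and ranks were computed with pandas 2.3.3 and numpy 2.4.6 in Python 3.11.15, trends with statsmodels 0.14.6 and figures with matplotlib 3.10.9, and the code was tested on simulated data. With 1 condition there is no test and no p-value, and the number of arrays limits the precision. Where horses tied for an extreme (1.64% of probe sets at the top, 2.07% at the bottom), the lower-numbered horse was counted.

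Genes named are the 30 brightest, the 20 dimmest, the 30 with the highest SD, the 15 steadiest of the brightest 25%, the 3 brightest and the most variable of each list, and a panel of 24 genes. Other genes named were chosen after their values were seen. The arrays, lists and panel were chosen with earlier results of these data known. Alternatives were other normalizations, measures of spread, background levels, and each horse left out. Gene or probe sequences were not used here.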

Additional observations from a re-analysis of the deposited data

Results flagged for a closer look

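In 14 of 259 groups of 6 values examined (5.41%) the highest or lowest horse lay far from the other 5, by a gap that took up most of the whole range (Dixon's criterion). For unselected normal values the criterion flags about 1 in 20 groups. Many genes here were named for a large SD over the same 6 values, which 1 far value raises. That rate is therefore no baseline for the 14. Horse 1 stood far above the others for THBS4 (9.42, the next horse at 6.38), ERG (8.87, next 5.54), DCN (8.53, next 5.71), SLC35D2 (8.04, next 4.68), LPAR1 (8.03, next 4.12) and SOX5 (6.05, next 3.92).

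Horse 4 stood far above the others for TLR7 (7.69, next 5.65), TIMD4 (7.50, next 5.04), SELP (6.27, next 4.43), IL1RN (6.18, next 4.78) and ICOS (5.83, next 4.58). TLR7 senses viral RNA, SELP encodes P-selectin and ICOS is a T cell costimulator.

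Horse 6 stood far below the others for SOD2, at 2.65 against 6.23 for the next, and far above them for the olfactory receptor symbol OR2B8G, at 3.51 against 2.30. The median of the lining macrophage list was 4.46 in horse 3, far below the other 5, which lay between 4.92 and 5.15.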

How the results depend on the processing

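The 30 brightest probe sets were the steadiest result: 30 stayed under other normalizations, the median over arrays and 1 probe set per gene, and 28 to 29 with a horse left out. The most variable set depended on the measure. Of its 30 members 9 stayed when the median absolute deviation replaced the SD, 12 when the difference from the trend of SD on level did, and 13 to 28 with a horse left out. Of 34 lists, 6 had a median above the reference level, 3 with the 99th percentile of the genes of other tissues in place of the 95th, 31 with the median of all probe sets, and 4 to 7 with a horse left out. The first component held 33.0% of the variance, 29.95% after quantile normalization, 45.9% over bright probe sets alone and 33.1% to 41.5% with a horse left out.

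Alternatives for the members highest in 1 horse were chosen after seeing the data. Counting bright members alone leaves fewer to count: 3 of 4 fibroblast and 5 of 6 matrix genes in horse 1 (21.5% of all bright probe sets), and 7 of 7 monocyte and macrophage, 6 of 10 T cell and 3 of 5 NK genes in horse 4 (41.8%). Over whole lists, with another horse left out, the counts for horse 1 were 11 to 12 fibroblast and 20 to 22 matrix genes. For horse 4 they were 13 monocyte and macrophage, 12 to 14 T cell and 10 to 11 NK genes. Such a count cannot fall when another horse is removed, so these ranges do not test it. Probe sets above the reference level numbered 1797 to 2219 and those with an SD over 1 numbered 286 to 603 with a horse left out. All 1989 recomputed levels of named genes moved by less than 1 SD. Leaving out 1 of 6 horses, or taking the median, cannot move a mean by that much, so this says little. Of 306 list medians, 301 moved by less than the SD of their medians in single horses. No paired analysis was possible because there is 1 condition and no comparison. Depth has no counterpart on arrays, and dim probe sets near the reference level limit what can be read.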

Other observations

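Most of the brightest probe sets of the array had no symbol. Of the 30 brightest of all 30559 probe sets, 1 had a single symbol, ND1, at rank 22, and of the 1000 brightest 237 had. The brightest of all had a mean of 13.48, above ND1 at 11.91. The annotation used here does not list a symbol for 29 of these 30, and they were not identified.

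Some genes read by several probe sets gave unlike answers in the same fluid. RPL5 differed by 6.05 between probe sets, GZMB by 3.17 (6.83, 6.05 and 3.66) and IFI27 by 2.27, whereas FTL differed by 0.66 and MKI67 by 0.06. Among the bright microRNA genes, MIR23A was at 6.62 with an SD of 1.11. MIR223, a microRNA of myeloid cells, was 6.96 in horse 4, with all others between 2.57 and 4.23.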
